A study of Mus musculus with 2 samples.

Results

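Of the 55536 genes in the files, 10 genes of antigen presentation on major histocompatibility complex (MHC) molecules are described here, matched by their symbols: H2-Aa, H2-Ab1, H2-Eb1, H2-DMa, H2-DMb1, Cd74 and Ciita of the class II pathway, and H2-K1, H2-D1 and B2m of class I. They were measured by total RNA-seq of whole adrenal gland in 1 group, adult female mice aged 8 to 10 months from a cross of 5xFAD with CAST. The 5xFAD strain carries human transgenes, driven by the Thy1 promoter, that model Alzheimer's disease, and CAST is a wild-derived inbred strain. The group holds 2 biological replicates, named mouse 2 and mouse 1 by replicate number, and both carry the same donor identifier, so that they are separate animals rests on the replicate numbers. No control group was analysed here, so the levels, the differences between the mice and the placement of reads are described. Genes held 32192201 expected counts in mouse 2, against 36558609 in mouse 1.

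Class I molecules stand on nearly all nucleated cells. They consist of a heavy chain, such as H2-K1 or H2-D1, bound to beta-2-microglobulin, encoded by B2m, and they present peptides from inside the cell to CD8+ T cells. Class II molecules are made mainly by dendritic cells, B cells and macrophages, and by other cells after exposure to interferon gamma, and they present peptides from endosomes to CD4+ T cells. H2-Aa encodes the alpha chain of the A molecule, H2-Ab1 its beta chain, and H2-Eb1 the beta chain of the E molecule. Cd74, the invariant chain, fills the groove until H2-DM, a dimer of the H2-DMa and H2-DMb1 products, exchanges its remnant for a peptide. Ciita is the coactivator that switches class II genes on, and it acts through factors that bind paired X and Y boxes in their promoters.

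The promoters are shown because boxes of this kind are what Ciita and its class I relative Nlrc5 act through. RefSeq entries on GRCm38.p6, the assembly also called mm10, were found for 7 of the 10 genes; H2-Ab1, Cd74 and Ciita had none and are named only. Each run is the 250 bases before a RefSeq start (for H2-K1 the first of its entries), 5′ to 3′ on the gene's own strand, and capitals mark the motif matches described after the runs.
H2-Aa: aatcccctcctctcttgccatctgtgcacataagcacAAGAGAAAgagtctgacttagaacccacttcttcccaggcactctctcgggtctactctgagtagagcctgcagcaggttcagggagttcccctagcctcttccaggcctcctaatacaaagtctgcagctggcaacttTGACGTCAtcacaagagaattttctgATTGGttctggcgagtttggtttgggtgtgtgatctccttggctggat
H2-Eb1: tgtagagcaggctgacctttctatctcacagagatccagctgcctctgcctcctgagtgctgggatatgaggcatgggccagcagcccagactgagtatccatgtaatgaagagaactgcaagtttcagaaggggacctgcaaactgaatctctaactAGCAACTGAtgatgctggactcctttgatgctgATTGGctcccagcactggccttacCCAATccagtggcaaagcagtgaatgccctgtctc
H2-K1: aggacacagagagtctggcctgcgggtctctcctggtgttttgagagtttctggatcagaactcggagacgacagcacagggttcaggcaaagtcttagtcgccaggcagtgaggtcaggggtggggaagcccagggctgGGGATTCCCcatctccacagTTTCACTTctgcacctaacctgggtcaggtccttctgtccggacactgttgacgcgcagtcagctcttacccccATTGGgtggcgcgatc
B2m: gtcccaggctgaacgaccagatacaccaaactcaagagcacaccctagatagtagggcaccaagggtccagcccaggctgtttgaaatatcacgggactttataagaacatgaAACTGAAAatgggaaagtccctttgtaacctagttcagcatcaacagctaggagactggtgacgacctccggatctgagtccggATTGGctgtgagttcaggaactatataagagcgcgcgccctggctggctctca

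These runs lie at chr17:34287824-34288073 on the minus strand for H2-Aa, chr17:34305617-34305866 on the plus strand for H2-Eb1, chr17:34000348-34000597 on the minus strand for H2-K1 and chr2:122147437-122147686 on the plus strand for B2m. The letters searched, on both strands, were chosen after looking at these sequences. The Y box was ATTGG or its complement CCAAT, found for each of the 7 genes with an entry and in 33.8% of the 32851 promoters in the table. The X box was AGNAACNGA, found in 4.42% of promoters and, among the 7 genes, only for H2-Eb1 and H2-DMb1. None of the class I promoters held a match to these X box letters. The H2-Eb1 run held an X box whose first base lay at position -92 and a Y box at -59, counted back from the start, and the H2-DMb1 window held them at -95 and -61. The H2-DMb1 and H2-D1 windows are described but not printed, since much of the H2-DMb1 window and all of the H2-D1 window lie in the first exon that GENCODE M21 gives to those genes; the B2m run shares only its last base with the first exon of B2m. No match to these X box letters was found in the H2-Aa window, which held the cyclic AMP element TGACGTCA, present in 1.55% of promoters, at -74, a Y box at -48 and an interferon element core (described next) at -213. The H2-Eb1 run held a further CCAAT at -35. Of the H2-DMa entries, which are not printed, the first had no match and the second had a Y box at -198 and an interferon element core at -25.

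In both class I heavy chain promoters a kappa B site, GGGATTCCC, stood before the core of an interferon-stimulated response element, TTTCNNTT. The kappa B site began at -110 in H2-K1 and -170 in H2-D1, and the interferon element core at -90 in H2-K1 and -150 in H2-D1. The Y box of H2-K1 lay at -16 in the printed entry, and H2-D1 had matches at -76 and -53. The second H2-K1 entry, which is not printed, had Y box matches at -30 and -6. That kappa B sequence occurs in 0.301% of promoters and the interferon element core in 21.3%. The B2m run held an interferon element core at -137 and a Y box at -53, and no match to the kappa B letters. A match is a description of letters and not a measured binding site, and no match overlapped another.

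B2m and the class I heavy chains stood at higher levels than H2-Aa, H2-Ab1 and H2-Eb1, and Ciita was the lowest of the 10 genes. The order in TPM (a level per transcript length, scaled to the same sum over all features of each library) was the same in both mice, from B2m through H2-K1, Cd74, H2-D1, H2-Eb1, H2-Aa, H2-Ab1, H2-DMa and H2-DMb1 to Ciita. Of the 9 neighbouring pairs in that order, 3 had overlapping ranges over the mice: Cd74 with H2-D1, H2-Eb1 with H2-Aa, and H2-Aa with H2-Ab1. At a threshold of 1 TPM, 9 of the 10 genes were reached in both mice, and Ciita was not. Among 22015 nuclear protein-coding genes, of which 11913 reached 1 TPM in both mice, the members ranked from 138 (B2m) to 12682 (Ciita) by mean TPM.

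**Figure D1:**
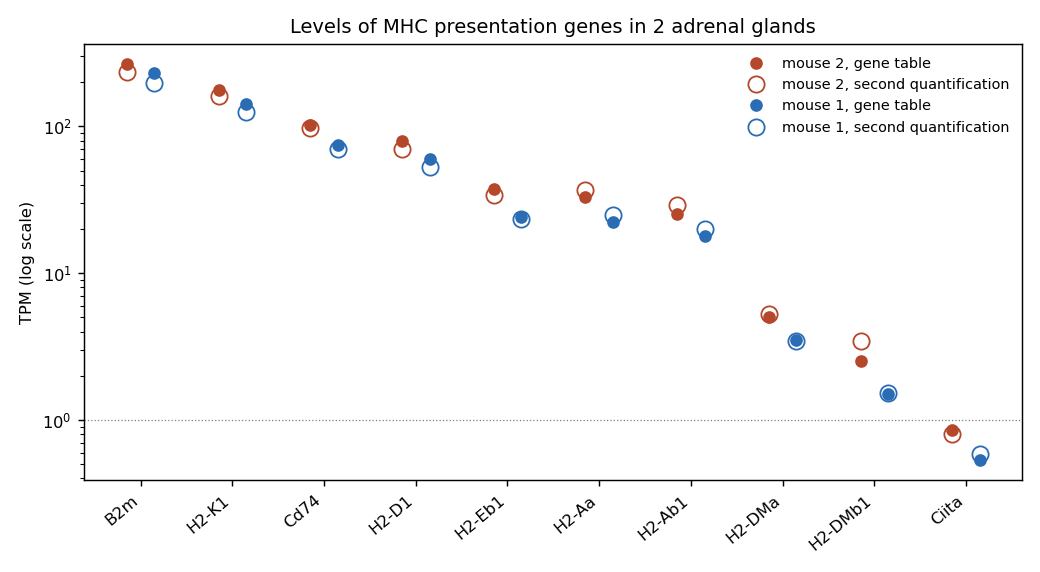
Level of each gene in TPM (log axis) in mouse 2 and mouse 1, from the gene tables (filled) and from the second quantification (open). B2m is highest, at 267 TPM in mouse 2, against 230.2 TPM in mouse 1, and Ciita lies under the dotted line at 1 TPM. Each gene table value is higher in mouse 2, but TPM is not scaled between the mice. By scaled counts, the log2 ratios of H2-K1 and B2m were 0.0016 and 0.040, and neither passed the test.

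Among the class I genes, B2m (chromosome 2, 122147686 to 122153083, plus strand) stood at 267 TPM in mouse 2, against 230.2 TPM in mouse 1, or 249 ± 26.1 TPM (SD, n = 2). H2-K1 (chromosome 17, 33996017 to 34000347, minus strand) stood at 176 TPM in mouse 2, against 141 TPM in mouse 1. H2-D1 (chromosome 17, 35262730 to 35267499, plus strand) stood at 79.2 TPM in mouse 2, against 59.9 TPM in mouse 1. Each of these genes was above H2-Aa, H2-Ab1 and H2-Eb1 in both mice. The level of B2m was 1.52 times that of H2-K1 in mouse 2 and 1.63 times in mouse 1. H2-K1 exceeded H2-D1 by 2.23 times in mouse 2 and 2.36 times in mouse 1, but over protein-coding transcripts alone this ratio was 1.18 in mouse 2, against 1.47 in mouse 1.

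Within the class II pathway, Cd74 (chromosome 18, 60803848 to 60812652, plus strand) was the most abundant, at 103 TPM in mouse 2, against 74.6 TPM in mouse 1. H2-Eb1 (chromosome 17, 34305867 to 34316674, plus strand) stood at 37.6 TPM in mouse 2, against 24 TPM in mouse 1, H2-Aa (34282744 to 34287823, minus strand) at 33.3 TPM in mouse 2, against 22.3 TPM in mouse 1, and H2-Ab1 (34257689 to 34269419, plus strand) at 25.3 TPM in mouse 2, against 17.9 TPM in mouse 1, all on the same chromosome. H2-Aa was at 1.32 times H2-Ab1 in mouse 2 and 1.24 times in mouse 1. Over protein-coding transcripts alone, H2-Eb1 was the lowest of the 3 chain genes, at 8.02 TPM in mouse 2, against 5.37 TPM in mouse 1, where H2-Aa stood at 33.0 TPM in mouse 2, against 22.1 TPM in mouse 1, and H2-Ab1 at 24.3 TPM in mouse 2, against 17.1 TPM in mouse 1. Cd74 was at 1.07 times the summed TPM of the 3 chain genes in mouse 2 and 1.16 times in mouse 1. The exchange factor genes were lower: H2-DMa (34119541 to 34139101, plus strand) stood at 5.03 TPM in mouse 2, against 3.49 TPM in mouse 1, and H2-DMb1 (34153072 to 34160230, plus strand) at 2.54 TPM in mouse 2, against 1.5 TPM in mouse 1. Ciita (chromosome 16, 10480059 to 10528418, plus strand) stood at 0.85 TPM in mouse 2, against 0.53 TPM in mouse 1, from 99 expected counts in mouse 2, against 66 in mouse 1.

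The partner of the H2-Eb1 chain is the E alpha chain. In mice of some MHC haplotypes, including that of the reference strain, the E alpha gene is silent, and the annotation holds it as a polymorphic pseudogene, H2-Ea-ps. It stood at 12.3 TPM in mouse 2, against 9.07 TPM in mouse 1, from 379 expected counts in mouse 2, against 326 in mouse 1, and shared no 31-base stretch with another annotated gene. H2-Eb1 was 3.05 times as high in mouse 2 and 2.65 times in mouse 1. From which strain's allele these reads came was not tested.

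All 7 class II genes had a higher scaled count in mouse 2, and 5 of them differed from mouse 1 beyond counting noise, against 1 of the 3 class I genes. Counts were scaled by TMM, each log2 ratio is mouse 2 over mouse 1, and an exact two-sided binomial test with Benjamini-Hochberg adjustment over 17666 genes was used; it compares these 2 libraries and not conditions. In all, 10 of 10 members had a log2 ratio above 0, where 49.8% of all tested genes did, and 6 were called higher in mouse 2, where 10.4% were, with 0 called lower, where 11.0% were, and none lower at an unadjusted p under 0.05. None of the 10 reached a difference of 2-fold, as 2.96% of all tested genes did. The median log2 ratio was 0.42 over the class II genes and 0.04 over the class I genes, against -0.0011 over all tested genes. Bulk tissue does not separate fewer cells of a type from less RNA per cell.

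Ciita had the highest ratio and the widest interval. Its 99 expected counts in mouse 2 against 66 in mouse 1 gave a log2 ratio of 0.70, with a 95% Clopper-Pearson interval, which covers counting error only, of 0.26 to 1.19 (exact binomial adjusted p = 0.0118). The 3 chain genes, downstream of Ciita, lay close together. H2-Eb1 had 1238 expected counts in mouse 2, against 1002 in mouse 1, a log2 ratio of 0.44 (0.32 to 0.56; exact binomial adjusted p = 2.25e-11). H2-Aa had 1135 counts in mouse 2, against 937 in mouse 1, a log2 ratio of 0.41 (0.29 to 0.54; exact binomial adjusted p = 2.92e-09). The A beta chain gene H2-Ab1 had 904 counts in mouse 2, against 790 in mouse 1, a log2 ratio of 0.33 (0.19 to 0.47; exact binomial adjusted p = 4.21e-05). Intervals of all 3 overlap one another.

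Cd74 had 4009 expected counts in mouse 2, against 3607 in mouse 1, a log2 ratio of 0.29 (0.22 to 0.35; exact binomial adjusted p = 2.09e-16). The H2-DM genes had ratios of similar size that did not pass the test. Under total count scaling, where H2-DMa passed, the median over all tested genes was itself 0.047. H2-DMa had 153 counts in mouse 2, against 125 in mouse 1, a log2 ratio of 0.42 (0.076 to 0.78; exact binomial adjusted p = 0.0686), and passed in the second quantification (log2 ratio 0.61, adjusted p = 0.00136) and under total count scaling. H2-DMb1 had 102 counts in mouse 2, against 79.7 in mouse 1, a log2 ratio of 0.48 (0.049 to 0.93; exact binomial adjusted p = 0.0974), and passed in the second quantification (log2 ratio 0.66, adjusted p = 0.00726).

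One of the class I genes passed the test. H2-D1 had 4860 expected counts in mouse 2, against 4454 in mouse 1, a log2 ratio of 0.26 (0.20 to 0.32; exact binomial adjusted p = 1.48e-16). H2-K1 had 5273 counts in mouse 2, against 5783 in mouse 1, a log2 ratio of 0.0016 (-0.053 to 0.056; exact binomial adjusted p = 1), which was -0.019 under ERCC scaling and also below 0 under 3 other settings. The intervals of H2-D1 and H2-K1 do not overlap, though the difference between the 2 ratios was not itself tested. B2m had 6672 counts in mouse 2, against 7122 in mouse 1, a log2 ratio of 0.040 (-0.0079 to 0.089; exact binomial adjusted p = 0.256), and passed under total count scaling and in the second quantification, where its log2 ratio was 0.089 and 0.087. Under total count scaling the median over all tested genes was itself 0.047. TPM is not scaled between the mice, and nuclear protein-coding genes held 32.3% of all TPM in mouse 2 and 29.5% in mouse 1. Over those genes alone, B2m stood at 826 TPM in mouse 2, against 781 TPM in mouse 1.

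**Figure D2:**
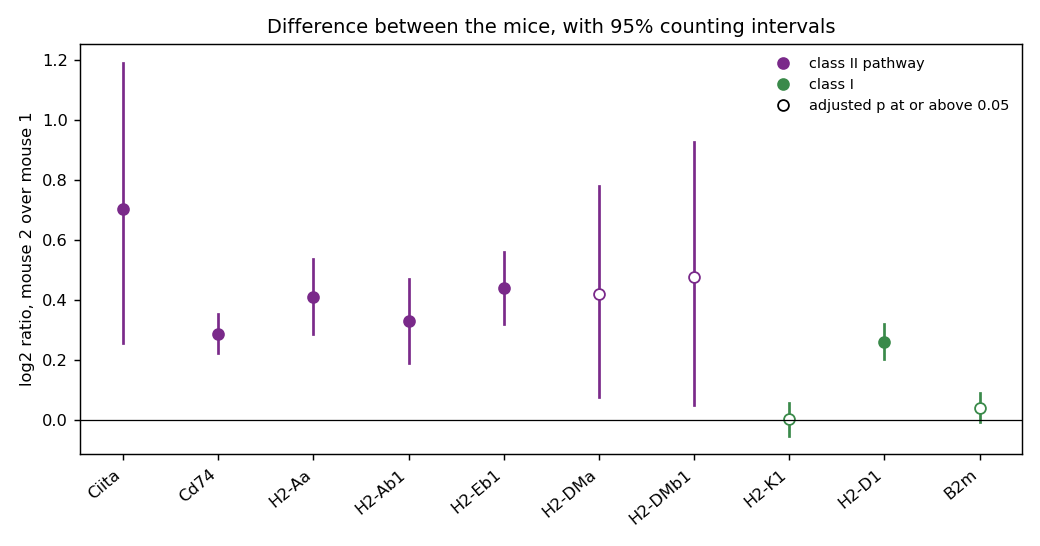
Log2 ratio of scaled counts, mouse 2 over mouse 1, for each gene, with its 95% counting interval; open points did not pass the adjusted p of 0.05. The 7 class II genes lie between 0.29 and 0.70, and H2-K1 and B2m have intervals that include 0.

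Macrophage genes, markers of a cell type that carries class II, all had slightly higher scaled counts in mouse 2 in the gene tables. None of them passed the test. That test called 10.4% of all tested genes higher in mouse 2 and 11.0% lower. All 11 macrophage markers had a log2 ratio above 0, where 49.8% of all tested genes did, with a median of 0.10. In the second quantification the lowest ratio was -0.035, and none passed there. The 11 markers summed to 148 TPM in mouse 2, against 126 TPM in mouse 1. Lyz2, a lysozyme gene, led them at 57.5 TPM in mouse 2, against 49.9 TPM in mouse 1. Of the 9 dendritic cell markers, 6 had enough counts for a ratio, 3 above 0 and 3 below, with a median of 0.11. Of these, 2 were called higher in mouse 2 and 0 lower: Fscn1, an actin-bundling gene, with a log2 ratio of 0.26 (exact binomial adjusted p = 0.00989) that did not pass in the second quantification, and the integrin gene Itgax, with 0.60 (exact binomial adjusted p = 0.0261). The log2 ratios below 0 were -0.60 for Flt3, -0.47 for Siglech and -0.029 for Zbtb46, none of which passed. For Zbtb46 the ratio was 0.041 in the second quantification and did not pass there. The dendritic list summed to 14.8 TPM in mouse 2, against 11.5 TPM in mouse 1, and Xcr1 and Ccr7 had at most 5 counts in a mouse. Most of that sum came from Fscn1, at 8.72 TPM in mouse 2, against 6.33 TPM in mouse 1, and from Zbtb46. Zbtb46 stood at 4.10 TPM in mouse 2, against 4.01 TPM in mouse 1. Only these 2 of the 9 markers reached 1 TPM in both mice. The part of the macrophage and dendritic lists in the class II difference was not tested.

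No B lineage gene was called higher in mouse 2. Of 6 markers, 3 were called lower in mouse 2 and 0 higher, where 11.0% and 10.4% of all tested genes were. The median log2 ratio of the 6 was -1.0, and the list summed to 81 expected counts in mouse 2, against 185 in mouse 1. In TPM that sum was 1.30 in mouse 2, against 2.51 in mouse 1, and none of the 6 reached 1 TPM. T and NK cell markers summed to 43 expected counts in mouse 2, against 52.0 in mouse 1. In TPM the order was the other way, at 1.14 in mouse 2, against 1.08 in mouse 1. Neither TPM nor the summed counts of the B lineage and the T and NK cell lists are scaled between the mice. Only 1 of the T and NK cell markers had enough counts for a ratio, Klrb1c, with a log2 ratio of -0.078 that did not pass. The gene of interferon gamma, Ifng, had 0 counts in both mice, which allows up to 3 counts. The 6 endothelial markers had a median log2 ratio of 0.06, with 0 called in either direction. Adipocyte genes, a list added after values were seen, were mostly called higher: 7 of 8 passed with higher values in mouse 2, with a median log2 ratio of 0.70, and summed to 2397 TPM in mouse 2, against 1429 TPM in mouse 1. The part of these lists in the class II difference was not tested. Of the 6 cortical and medullary markers of the gland itself, 1 was called higher in mouse 2 and 4 lower, with a median log2 ratio of -0.10. The higher one was Star, which carries cholesterol into mitochondria, with a log2 ratio of 0.060, and the lower ones were Cyp11b1 (-0.16), Cyp21a1 (-0.094), Th (-0.11) and Chga (-0.27). Their part in the class II difference was likewise not tested.

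**Figure D3:**
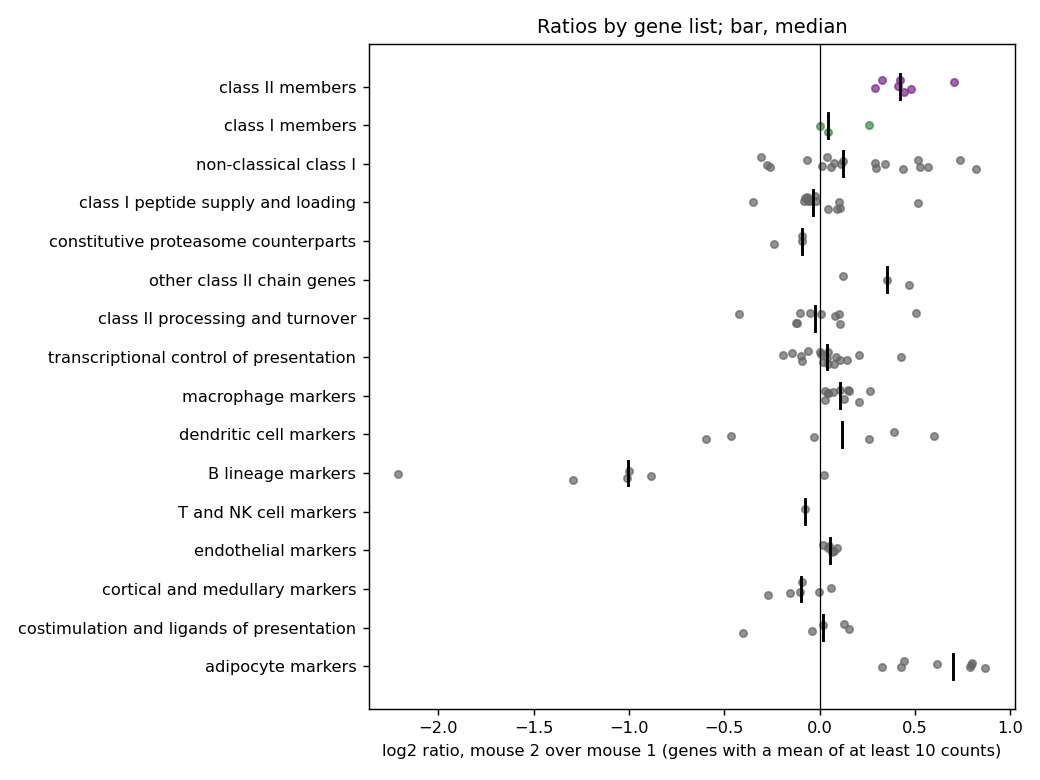
Log2 ratio, mouse 2 over mouse 1, of each gene with a mean of at least 10 counts, by list; the bar is the median. The class II genes have a median of 0.42, macrophage markers 0.10, B lineage markers -1.0 and adipocyte markers 0.70.

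Other genes of the pathways were called in both directions. For comparison with each list, 10.4% of all tested genes were called higher in mouse 2 and 11.0% lower. Of the 17 genes that control transcription of presentation genes, 2 were called higher in mouse 2 and 0 lower, with a median log2 ratio of 0.04. One was Nlrc5, the class I counterpart of Ciita, with 269 expected counts in mouse 2, against 219 in mouse 1 and a log2 ratio of 0.43 (exact binomial adjusted p = 0.00789). The other was the kinase gene Jak1, with a log2 ratio of 0.083 (exact binomial adjusted p = 0.00656), which did not pass under ERCC scaling. Of 14 genes that supply and load class I peptides, 2 were called higher and 4 lower, of which 3, the chaperone genes Calr, Canx and Pdia3, did not pass under total count scaling. Tap2, a subunit of the peptide transporter, had a log2 ratio of -0.35 (exact binomial adjusted p = 7.58e-11), and the immunoproteasome subunit gene Psmb9 had 0.52 (exact binomial adjusted p = 0.0043).

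Immunoproteasome subunits were low beside the constitutive subunits they replace. Psmb8 stood at 9.50% of the TPM of Psmb5 in mouse 2, against 7.96% in mouse 1. Psmb9 stood at 7.54% of Psmb6 in mouse 2, against 5.61% in mouse 1, and Psmb10 at 34.5% of Psmb7 in mouse 2, against 32.7% in mouse 1. Among the 10 genes of class II processing and turnover in the files, 1 was called higher and 4 lower. Of all tested genes, 10.4% were called higher and 11.0% lower. Ctsb, a lysosomal protease and the most abundant of them, stood at 411 TPM in mouse 2, against 501 TPM in mouse 1, a log2 ratio of -0.43, and was called lower. Ctss, the protease that trims the invariant chain, had a log2 ratio of 0.10 (exact binomial adjusted p = 0.361).

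The non-classical class I genes were called in both directions: of 26 in the files, 19 had enough counts for a ratio. Of these, 5 were called higher and 2 lower, where 10.4% and 11.0% of all tested genes were. Of the higher ones, Fcgrt did not pass under ERCC scaling, without a count filter or over nuclear protein-coding genes alone, and H2-Q5 did not pass in the second quantification (log2 ratio 0.74 in the gene tables and 0.22 there). Of the lower ones, Procr did not pass in the second quantification (exact binomial adjusted p = 0.069). Cd1d1, which presents lipids, was the most abundant at 92.1 TPM in mouse 2, against 98.5 TPM in mouse 1, with a log2 ratio of -0.31 (exact binomial adjusted p = 2.57e-23). H2-Q10 had a log2 ratio of 0.82 (exact binomial adjusted p = 3.56e-05), from 172 expected counts in mouse 2, against 106 in mouse 1, and of 0.43 (exact binomial adjusted p = 0.00313) in the second quantification, from 314 estimated counts in mouse 2, against 256 in mouse 1. It shares 307 of the 31-base stretches of H2-K1, so reads of these genes cannot be fully told apart. H2-Q1 averaged 0.506 TPM in the second quantification described further on, against 1.345 TPM in the gene tables, and was over 2-fold apart between them. Of the 7 costimulation and ligand genes, 2 reached 1 TPM in both mice: Icosl, at 6.50 TPM in mouse 2, against 5.07 TPM in mouse 1, and Cd274, at 2.31 TPM in mouse 2, against 2.71 TPM in mouse 1. Cd274, which encodes an inhibitory ligand of T cells, was the only one called, with a log2 ratio of -0.40 (exact binomial adjusted p = 0.00355), and Cd80 and Cd86 were under 1 TPM in both mice.

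Members differed in how far their reads could be assigned to one gene. Of all 31-base stretches in its annotated transcripts, H2-DMb1 shared 31.4% with its paralog H2-DMb2. H2-D1 shared 26.7% and H2-K1 22.8%, and the pair had 358 in common. B2m and H2-DMa shared 0%, and the other 5 shared from 0.267% to 1.41%. The deposited posterior SD of the count was largest for H2-D1, at 11.0 counts in mouse 2, against 10.8 in mouse 1, and was 0 for the 7 genes other than H2-D1, H2-K1 and H2-DMb1. The levels of H2-K1, H2-D1 and H2-DMb1 are uncertain at least to that extent. A posterior SD of 0 does not fix a level: H2-Ab1 received 1.33 times as many counts in the second quantification described next. CAST reads were placed on another strain's reference, and the effect of this on the levels was not measured.

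A second quantification of the same libraries, derived from the reads by way of an index of transcripts, gave similar gene levels. None of the 10 differed by 2-fold from the gene tables, as 4.78% of 13524 genes did. It placed H2-Aa above H2-Eb1, at 36.7 against 34.2 TPM in mouse 2 and 24.8 against 23.3 TPM in mouse 1. H2-Ab1 received 1.33 times as many counts in the second quantification as in the first, a ratio reached by 2.70% of 12104 protein-coding genes, whose median was 1.14. Ciita received 1.29 times as many, reached by 3.88%, and B2m 0.942 times, a ratio reached by 98.2%. The other members lay between 1.10 and 1.19.

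**Figure D4:**
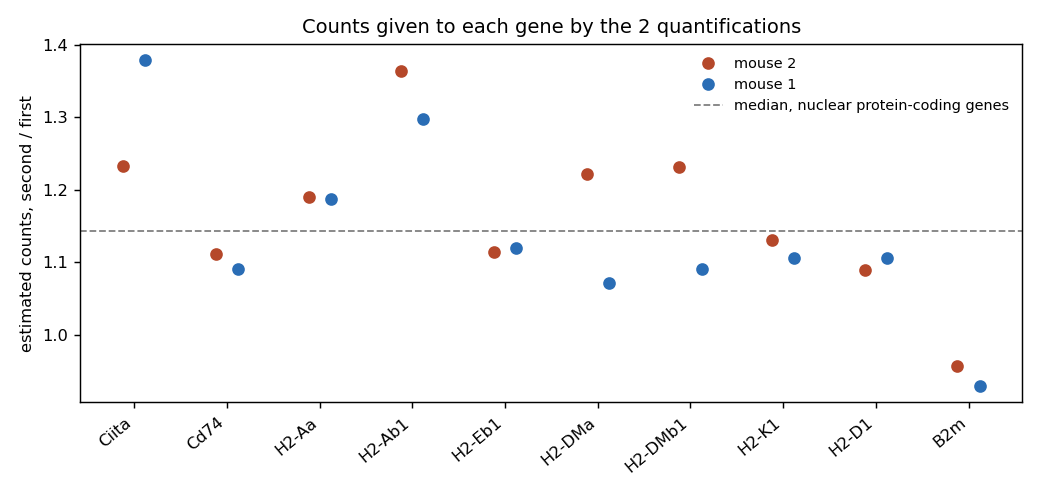
Estimated counts of each gene in the second quantification over expected counts in the first, for mouse 2 and mouse 1; the dashed line is the median of 12104 protein-coding genes, 1.14. H2-Ab1 lies above it in both mice and B2m below 1 in both.

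Members differed in how far 1 transcript led. The median share of the leading transcript over the 10 genes was 76.2% of the gene's TPM. B2m had 1 annotated transcript. H2-Aa-201 held 99.0% of H2-Aa in mouse 2 and 98.5% in mouse 1, but in the second quantification 80.6% in mouse 2, against 79.1% in mouse 1, where H2-Aa-204 took 18.5% in mouse 2, against 19.8% in mouse 1. H2-Ab1-201 held 96.1% in mouse 2, against 94.3% in mouse 1, and H2-D1-202 held 90.9% in mouse 2, against 88.3% in mouse 1.

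Cd74 was split between its short and long forms. Cd74-201 held 65.5% of the gene in mouse 2 and 59.8% in mouse 1, and Cd74-202 held 34.3% in mouse 2, against 37.9% in mouse 1. The long form has 192 more coding bases, or 64 residues, and in mouse it carries a thyroglobulin type 1 domain. The second quantification gave Cd74-201 62.9% in mouse 2, against 58.5% in mouse 1.

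For H2-K1 a retained intron transcript of 457 bases, H2-K1-215, held 46.2% of the TPM in mouse 2 and 37.1% in mouse 1. The protein-coding transcripts H2-K1-205 and H2-K1-201 held 32.7% and 14.4% in mouse 2, and 33.7% and 20.1% in mouse 1. These are shares of TPM, a level per transcript length, and by counts the short H2-K1-215 held less of the gene. The second quantification gave it 647 of 5964 estimated counts in mouse 2 and 478 of 6392 in mouse 1. Over protein-coding transcripts alone, an alternative added after the data were seen, H2-K1 stood at 87.0 TPM in mouse 2, against 81.4 TPM in mouse 1, and Cd74 at 103 TPM in mouse 2, against 73.5 TPM in mouse 1, so that the order of the pair differed between the mice. H2-Eb1 was given mostly to transcripts other than protein-coding ones. H2-Eb1-205, annotated as a target of nonsense-mediated decay, held 48.0% in mouse 2, against 47.5% in mouse 1, and in the second quantification 78.0% in mouse 2, against 77.9% in mouse 1.

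**Figure D5:**
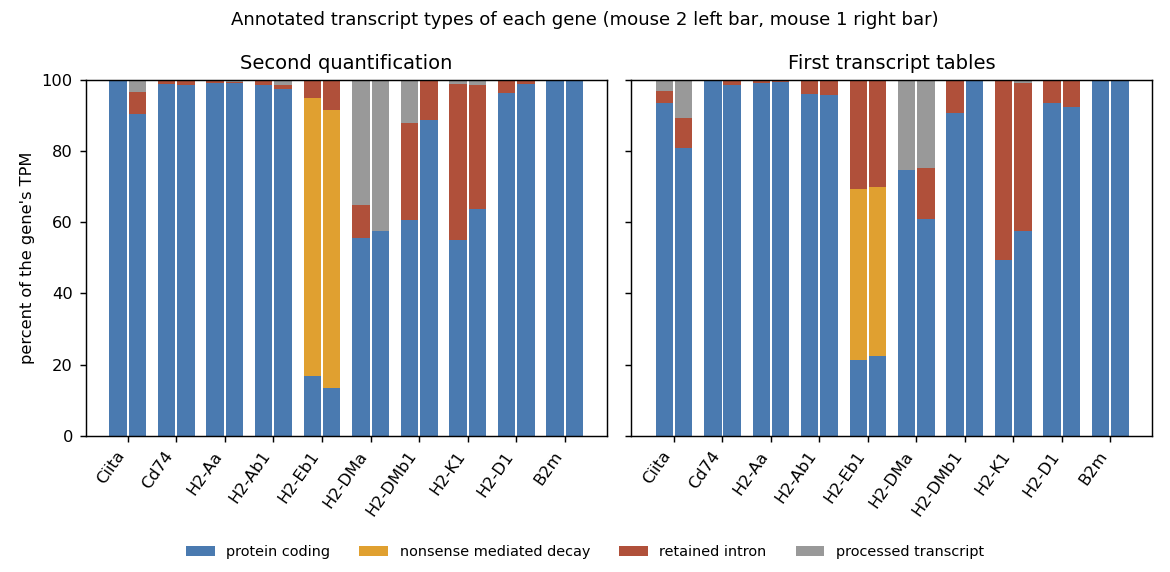
Share of each gene's TPM by annotated transcript type, in the second quantification and in the first transcript tables, with mouse 2 as the left bar and mouse 1 as the right bar of each gene. Retained introns hold 50.2% of H2-K1 in mouse 2 and 41.5% in mouse 1 in the first tables, and nonsense-mediated decay transcripts 48.0% of H2-Eb1 in mouse 2 and 47.5% in mouse 1.

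Ciita is known to be transcribed from several alternative promoters used in different cell types, and its annotated transcripts start in 3 regions. In the first transcript tables, the first region held 36.7% of the gene in mouse 2 and 23.7% in mouse 1, but in the second quantification 32.1% in mouse 2, against 31% in mouse 1. The second begins 8119 bases further on and held 32.8% in mouse 2, against 32.6% in mouse 1, in the first tables, and 35.1% in mouse 2, against 25.7% in mouse 1, in the second quantification. The third begins 9687 bases on and held 30.5% in mouse 2, against 43.7% in mouse 1, in the first tables, and 32.8% in mouse 2, against 43.3% in mouse 1, in the second quantification. The shares of the second quantification rested on 44.1, 69.4 and 8.50 estimated counts in mouse 2 and 36.8, 43.4 and 10.8 in mouse 1. The share of the third region there rests on few reads. In both quantifications that share came from the short transcripts Ciita-208, of 680 bases, and Ciita-204, of 1620 bases. Ciita-203, the third transcript of that region, of 3953 bases, held 0% in both mice. All these shares are of TPM, a level per transcript length, in which short transcripts weigh more than by counts.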

How the data were processed

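Whole adrenal gland was measured by total RNA-seq in 2 biological replicates, named as mice by replicate number and forming 1 group. Libraries were made from 300 ng of RNA, per the labels; ribosomal RNA was reduced, the kit was directional, and ERCC spike-ins were included. Per the file headers, the authors' gene and transcript tables use mm10 with GENCODE M21, rest on transcriptome alignments per the deposited text files, and hold expected counts, estimated and not always whole; for the aligner and quantifier, names are not given in sources used here. TPM, relative to all features, and FPKM are deposited beside them. Transcript tables list, per the file headers, the percent of a gene that each transcript holds, and the posterior SD of a count, a score, is also deposited. A second deposited transcript table holds estimated counts and TPM, derived from the reads and an index file.

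Levels are the deposited TPM. Log2 ratios of mouse 2 over mouse 1 were taken from expected counts after TMM scaling (edgeR 4.0.16 under R 4.3.3), adding a prior count of 2, where the mean count was 10 or more. Counts were rounded for the exact binomial test, called at an adjusted p under 0.05. Transcripts of the second table were added up per gene and set against the gene table on TPM plus 0.1. Other steps used Python 3.11.15, pandas 2.3.3, numpy 2.4.6 and scipy 1.17.1. The test was tried on simulated data that held counting noise alone, so variation between mice was not covered. Without molecular identifiers, reads do not stand for independent molecules, so intervals cover counting error only, and replicates that may share a donor may differ only technically.

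The members and lists were chosen with earlier results of these data known. The 10 members are always named; other genes came from the 3 of highest mean TPM of each list and those 2-fold apart between mice or quantifications, and Nlrc5, Psmb8, Psmb9, Psmb10, Tap2, Ctss, H2-Q10, H2-Q5, Procr, Itgax, Flt3, Siglech, Cyp11b1, Th, Chga, Cd80, Cd86, Ifng and low markers were named after their values were seen. One further gene that the rule takes is not reported here. Alternatives tried were scaling by total count, by median-of-ratios (DESeq2 1.42.0) and by ERCC, the second quantification, no count filter and a filter at 100 counts, nuclear protein-coding genes alone, a prior count of 0.5, FPKM, the posterior mean, other thresholds and pseudocounts, and either mouse left out.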

Additional observations from a re-analysis of the deposited data

How the results depend on the processing

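The number of members beyond counting noise was 6, and ranged from 5 (a mean of at least 100 counts, which leaves out Ciita and H2-DMb1) to 9 (second quantification) over the alternatives. All 7 class II genes kept a log2 ratio above 0 under each scaling, filter, prior count and quantification tried in which they were tested. The median log2 ratio of the members ranged from 0.30 to 0.42, and 0 members were 2-fold apart between the mice or between the quantifications under every alternative. Between 7 and 10 members reached the detection threshold, at 5 TPM and at 0.5 TPM. The median leading transcript share, 76.2%, ranged from 74.05% to 79.9% with 1 mouse left out. The log2 ratio of Hsd3b1, a cortical marker, was 0.046 under total count scaling against -0.0033 under TMM. Over all tested genes the median was 0.047 under total count scaling against -0.0011 under TMM. A change of scaling moves the log2 ratios of all genes by nearly the same amount. No paired analysis was possible because there is 1 group. Depth limits Ciita, H2-DMa and H2-DMb1 most, whose intervals are the widest.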
